A study of Caenorhabditis elegans with 2 samples.

Results

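NHR-85-GFP bound 324 sites on the autosomes of young *Caenorhabditis elegans* larvae that lay between genes and away from any annotated transcript start. They are the distal intergenic peaks among 1886 autosomal peaks (17.2%, 95% Wilson interval 15.5 to 18.9), in a list of 2404 distinct intervals over all chromosomes. The list is the deposited ce11 set kept at a threshold of the irreproducible discovery rate (IDR), a filter that keeps peaks ranked alike in both replicates. A peak was taken when its summit, the deposited position of its maximum, lay off the X chromosome, outside every annotated transcript, and away from every transcript start, meaning more than 1000 bp before it or more than 200 bp after it. Starts of every gene type counted, those of piRNA and other non-coding genes included. Signal was not used in this choice, but the list it was made from had already been filtered by peak rank. The other 1562 autosomal peaks, which serve as the comparison, had their summits in promoters (1321), introns (218) or exons (23).

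The study mapped NHR-85 by chromatin immunoprecipitation and sequencing (ChIP-seq) in hermaphrodites of strain OP539, genotype unc-119(tm4063) III; wgIs539. This line stably expresses NHR-85 with a C-terminal GFP-FLAG tag, and an anti-GFP antibody was used on sonicated chromatin of whole L1 larvae. The larvae were starved after bleaching to synchronize them and were taken 6 h later, and whether they were fed in that time is not stated. There were 2 biological replicates in 1 group, and neither an untagged strain nor another GFP fusion was part of the series, so sites that any GFP precipitation would recover cannot be told apart. The larvae were whole animals, so a site used in few cells and a site used weakly in many cells cannot be told apart either. The deposited lists hold no read counts, and the depth of each library is unknown.

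NHR-85 is a nuclear hormone receptor, a transcription factor with a zinc finger DNA-binding domain, and it is the worm's counterpart of Rev-Erb, a repressor in the mammalian circadian clock. It is known as a factor that helps to time development in larvae. Receptors of the Rev-Erb type bind a half-site, AGGTCA, with an AT-rich stretch before it. Most regulatory sequence of the compact *C. elegans* genome sits close to transcript starts, and elements farther out can act as enhancers, which raise or lower the activity of a gene from a distance. In this genome many starts are hidden by trans-splicing, which replaces the first part of a transcript, so the annotated start of a gene can lie downstream of its true promoter.

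The sequence under the summits is shown first, because the letters found there recur through the rest of the results. Each line is the 101 bp centred on a summit, read 5′ to 3′ on the plus strand of WBcel235 (ce11) from the RefSeq copy of that assembly. Capitals mark matches, on either strand, to any of 4 motifs. These are the GA repeat, GAGAGAG, which reads CTCTCTC on the other strand, and the E-box CACGTG. The others are the element CTGCGTC, which reads GACGCAG on the other strand, and the half-site AGGTCA, which reads TGACCT there. The E-box is bound by basic helix-loop-helix factors of the Max and HLH-30 kind, and CTGCGTC is a word common in nematode promoters. The first set shows GA repeats at 3 of the strongest peaks, upstream of T04C4.3 (chrIV:2219578-2219678), the receptor gene nhr-88 (chrII:2974019-2974119) and din-1 (chrII:11635936-11636036), which encodes a corepressor of the receptor DAF-12.
T04C4.3: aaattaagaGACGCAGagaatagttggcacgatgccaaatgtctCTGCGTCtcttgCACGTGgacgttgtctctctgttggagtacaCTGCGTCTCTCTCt
nhr-88: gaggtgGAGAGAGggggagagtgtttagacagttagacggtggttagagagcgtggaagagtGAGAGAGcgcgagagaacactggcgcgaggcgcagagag
din-1: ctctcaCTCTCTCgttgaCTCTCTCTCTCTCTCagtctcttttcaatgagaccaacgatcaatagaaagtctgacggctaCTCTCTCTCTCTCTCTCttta

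The second set shows E-boxes upstream of the kinase gene mak-1 (chrII:8742138-8742238), tpra-1 (chrIV:8949794-8949894) and F22B7.9 (chrIII:8658382-8658482). The first of them holds 2 copies and the second 3.
mak-1: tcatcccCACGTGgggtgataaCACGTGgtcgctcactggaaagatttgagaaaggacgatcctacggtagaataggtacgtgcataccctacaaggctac
tpra-1: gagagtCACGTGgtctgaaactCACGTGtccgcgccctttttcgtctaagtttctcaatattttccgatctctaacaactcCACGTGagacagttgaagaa
F22B7.9: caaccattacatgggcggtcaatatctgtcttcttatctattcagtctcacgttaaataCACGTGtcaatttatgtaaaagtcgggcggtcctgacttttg

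The third set shows CTGCGTC upstream of F54F12.1 (chrIII:13061276-13061376), of the AMP kinase subunit gene aakg-1 (chrIII:12583620-12583720) and of the receptor gene nhr-105 (chrIV:7047951-7048051).
F54F12.1: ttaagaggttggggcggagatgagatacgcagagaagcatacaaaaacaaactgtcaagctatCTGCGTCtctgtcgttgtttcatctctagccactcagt
aakg-1: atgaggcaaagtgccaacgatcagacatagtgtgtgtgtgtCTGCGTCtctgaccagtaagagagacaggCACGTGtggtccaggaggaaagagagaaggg
nhr-105: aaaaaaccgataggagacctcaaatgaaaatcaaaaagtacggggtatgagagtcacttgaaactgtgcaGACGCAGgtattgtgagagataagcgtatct

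The last set shows the half-site, once near the antimicrobial peptide gene nlp-24 (chrV:11614993-11615093), once near the reticulon gene ret-1 (chrV:14848727-14848827) and 8 times near let-767 (chrIII:6337906-6338006), which encodes a steroid dehydrogenase. The let-767 window was chosen after its values were seen, because it has the most half-sites among the peaks on chromosomes II to V, together with F40F8.4.
nlp-24: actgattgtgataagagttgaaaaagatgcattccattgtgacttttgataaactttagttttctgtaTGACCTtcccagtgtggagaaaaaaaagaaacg
ret-1: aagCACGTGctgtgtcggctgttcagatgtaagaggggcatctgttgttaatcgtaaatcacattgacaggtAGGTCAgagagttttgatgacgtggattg
let-767: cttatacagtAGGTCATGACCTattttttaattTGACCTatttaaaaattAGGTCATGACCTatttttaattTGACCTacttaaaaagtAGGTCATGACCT

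All 324 peaks were found in both replicate lists, as were 99.9% of all autosomal peaks. Peak signal, given in the peak caller's own units as the authors deposited it, had a median of 153.9 in the pooled list and ran from 97.7 to 1478. The replicate medians were 79.0 and 81.4. The pooled signal was close to the sum of the replicate signals, within 10% of it for 314 peaks. On the log2 scale replicate signals correlated with a Pearson r of 0.87 over these 324 peaks. This is a correlation across peaks of 2 libraries, and the ratio of replicate 2 to replicate 1 had an SD of 0.43 in log2. Because the IDR filter keeps peaks ranked alike in both replicates, this agreement is in part set by the choice of peaks. Replicate 2 was the higher one at 174 peaks.

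**Figure D1:**
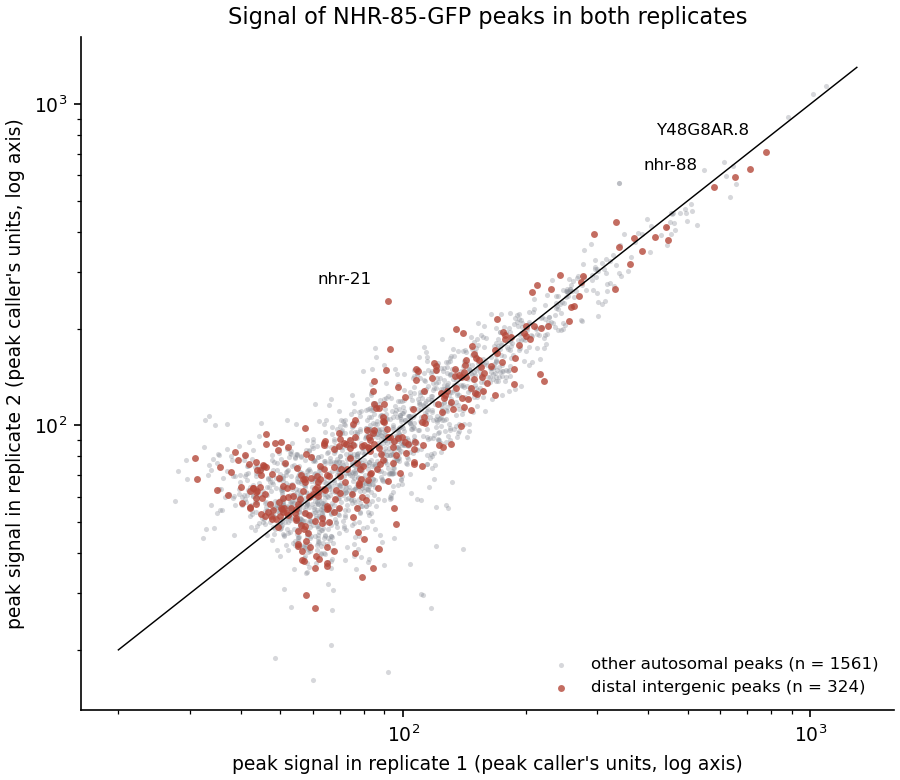
Peak signal in replicate 1 (x axis) and replicate 2 (y axis), both in the peak caller's units on log axes, for 324 distal intergenic peaks (red) and 1561 other autosomal peaks found in both replicates (grey); the line marks equal signals. The distal intergenic peaks lie within the cloud of the others, and the one near nhr-21 stands off the line with 91.9 and 244.2.

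Signal was above the autosomal median, which 50% of all autosomal peaks exceed, at 155 of the 324 (47.8%, 42.5 to 53.3) and at 788 of the other 1562 (50.4%, 47.97 to 52.9). That difference was not past Fisher's exact test (two-sided, adjusted p = 0.492 over 23 measures), and regions, not replicates, are the units of this and every test on regions here. Distal intergenic peaks made up 4 of the 25 strongest autosomal peaks (16%, 6.403 to 34.7), 13 of the strongest 50 (26%, 15.9 to 39.6) and 18 of the strongest 100 (18%, 11.7 to 26.7). Each of these intervals holds the 17.2% of the whole list.

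The strongest site lay 2450 bp downstream of the start of Y48G8AR.8 (I, 1273763 to 1274149). Its signal was 776 in replicate 1 and 710 in replicate 2, and it ranked 4 among all autosomal peaks. The site upstream of T04C4.3 (IV, 2219430 to 2219846), 2772 bp from the start, had signals of 709 and 626. The third, 1990 bp upstream of sup-26 (III, 4281905 to 4282627), had 655 and 593, and sup-26 encodes an RNA-binding protein. The fourth, 2570 bp upstream of nhr-88 (II, 2973901 to 2974239), had 580 and 551. The 4 were far above the rest in both replicates, since the next, 1883 bp upstream of mak-1 (II, 8741959 to 8742397), had 442 and 414.

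The peak 2377 bp upstream of din-1 (II, 11635799 to 11636143) had signals of 415 and 386. The start of another gene was closer, as the summit lay 200 to 1000 bp downstream of it. The peak 1515 bp upstream of mfb-1 (I, 8786766 to 8787107), which encodes an F-box protein related to the muscle atrophy factor MAFbx, had 385 and 348. The peak 1133 bp upstream of vhp-1 (II, 5321951 to 5322335), a phosphatase gene of the MAP kinase pathways, had 295 and 395. In that last case replicate 2 was the higher, by 0.42 in log2, about the SD over all members.

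Further down, the peak 1908 bp downstream of the start of nlp-40 (I, 16909 to 17132), a neuropeptide gene of the intestine, had 273 and 279. The peak 1952 bp upstream of hif-1 (V, 20778376 to 20778497), the hypoxia-inducible factor gene, had 263 and 236. The peak 2874 bp upstream of klf-1 (III, 2871846 to 2872132), a Krüppel-like factor gene, had 213 and 273. The replicates gave like values at these strong sites, which the IDR filter favours, with either one the higher. A pair of neighbours stood out by position: the sup-26 peak and the peak near R10E4.3 (III, 4284695 to 4285025), with signals of 334 and 430, lay on either side of the piRNA gene 21ur-13313, at 1386 bp and 1265 bp from its start.

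**Figure D2:**
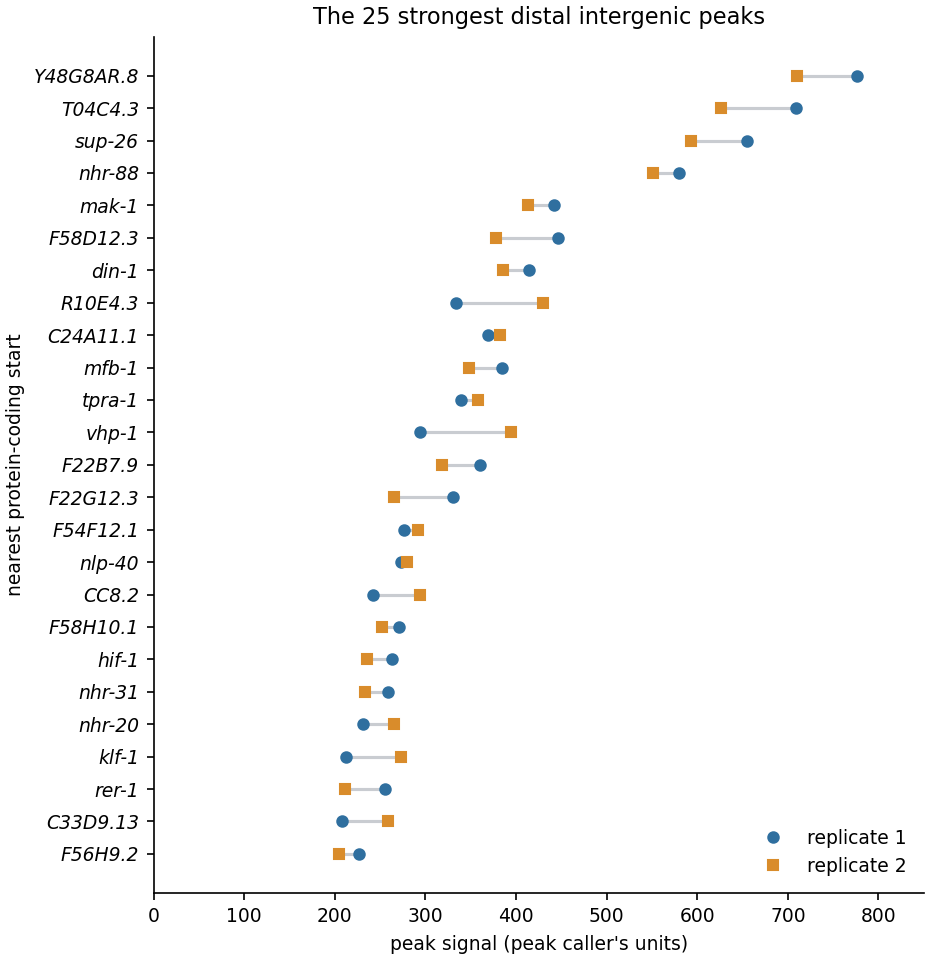
Signal of the 25 strongest distal intergenic peaks in replicate 1 (circles) and replicate 2 (squares), in the peak caller's units, each named by its nearest protein-coding start. Values fall from 776 and 710 at Y48G8AR.8 to 226 and 204 at F56H9.2, and the first 4 peaks are above 550 in both replicates.

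The remaining sites of the strongest 25 had pooled signals from 438 to 821. They lay near F58D12.3 (821), C24A11.1 (764), tpra-1 (696), F22B7.9 (676), F22G12.3 (613), F54F12.1 (586), CC8.2 (531), F58H10.1 (528), nhr-31 (498), nhr-20 (495), rer-1 (472), C33D9.13 (463) and F56H9.2 (438). Of these, rer-1 encodes a retrieval receptor of the endoplasmic reticulum. The peak near F22G12.3 differs from the others in its sequence, as only 63.8% of the 31-mers around its summit occur once in the genome (a share of 0.638), so reads there can be misplaced.

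The peaks were sorted by distance to the nearest start. How the sequence that meets the rule is spread over these distances was not measured. The counts therefore do not show whether the peaks lie closer to starts than that sequence does. The nearest start of any gene type lay 1000 to 2000 bp from the summit at 183 peaks, 2000 to 5000 bp at 100 and 5000 to 10000 bp at 19. At the other 22 the summit lay 200 to 1000 bp downstream of the start of a short gene and past its end. The summit was upstream of that start at 213 peaks (65.7%) and upstream of the nearest protein-coding start at 242 (74.7%). The rule bars summits inside transcripts, which takes out sequence downstream of starts, so these shares depend on the rule as well. The nearest start was that of a protein-coding gene at 221 peaks, of an unclassified non-coding RNA gene at 67, of a piRNA gene at 16 and of a snoRNA gene at 9. The nearest protein-coding start lay at a median of 2186 bp.

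**Figure D3:**
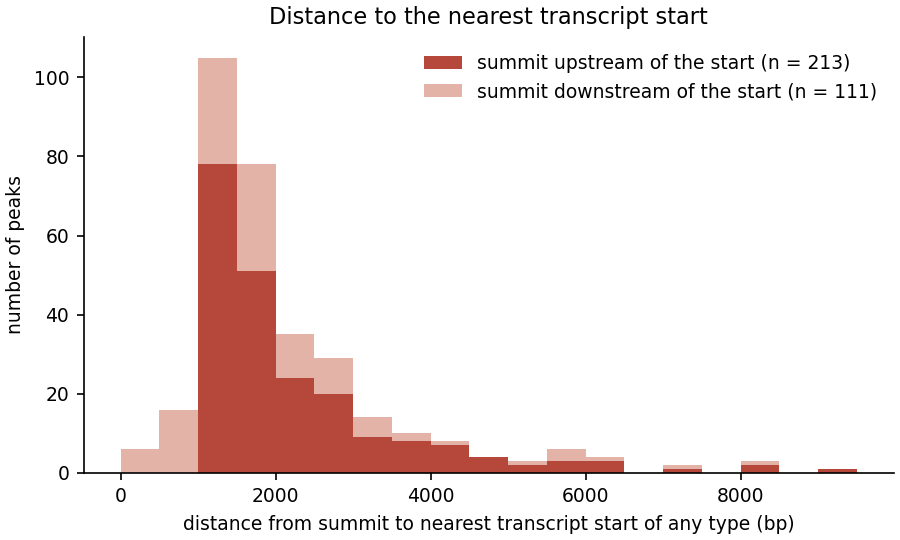
Number of distal intergenic peaks (y axis) by distance in bp from the summit to the nearest transcript start of any type (x axis, bins of 500 bp), with summits upstream of that start in dark red (n = 213) and downstream in light red (n = 111). Most of the 324 peaks lie at 1000 to 2000 bp, and the farthest at 9007 bp; the empty stretch upstream below 1000 bp is set by the rule.

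The 5 sites farthest from any start were of middling strength. The farthest lay 9007 bp upstream of nas-27 (II, 1188115 to 1188544), an astacin protease gene, with signals of 82.2 and 67.5. The site 8340 bp downstream of the Y48G8AR.3 start (I, 1295429 to 1295858) had 65.2 and 56.2. The site 8269 bp upstream of aakg-1 (III, 12583617 to 12583784) had 169.6 and 168.4 and was the only one of the 5 above 300 in pooled signal (349). The other two lay 8198 bp upstream of F28A12.8 (V, 8652144 to 8652573) with 99.2 and 92.1, and 7492 bp downstream of the Y37D8A.5 start (III, 12847618 to 12848047) with 131.1 and 87.8.

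The peaks nearest to the edges of the rule were as follows. Just past 1000 bp upstream lay the peaks of acer-1 at 1009 bp (pooled signal 112.3), hint-3 at 1024 bp (168.2) and K10B4.3 at 1032 bp (116.2). Just within it, and so counted as promoter peaks, lay those of otub-2 at 999 bp (118.6), nhr-62 at 999 bp (135.5) and C48E7.1 at 997 bp (162.0). On the downstream side, Y41C4A.24 at 206 bp (142.6), H14N18.6 at 235 bp (201.4) and F17C11.24 at 239 bp (151.0) were kept. K02F2.11 at 198 bp (138.2), F28F8.7 at 194 bp (99.2) and fat-6 at 190 bp (101.1) were not, and these 3 were all lower than the 3 kept. Upstream, the ranges overlapped.

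The rule leaves 12280249 bp of autosomal sequence in which a summit could qualify, 14.9% of the autosomes, and the peaks amount to 26.4 per Mb of it. Chromosome III had the highest density with 66 peaks (30.4 per Mb) and IV the lowest with 49 (21.9 per Mb). The counts were 55 on I, 77 on II and 77 on V. The central one of 3 equal parts of each chromosome held, in all, 142 of the 324 summits (43.8%, 38.5 to 49.3), against 33.4% of the qualifying sequence and 46.7% of all autosomal peaks. For the other autosomal peaks the share was 47.3%, and the difference was not past Fisher's exact test (adjusted p = 0.366).

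Most sites lay between genes that point the same way. Flanking transcripts were in tandem at 211 peaks (65.1%, 59.8 to 70.1), divergent at 62 (19.1%, 15.2 to 23.8) and convergent at 51 (15.7%, 12.2 to 20.1). Tandem intervals make up 52.3% of the qualifying sequence, divergent 24.0% and convergent 23.7%, so densities were 32.9, 21.03 and 17.6 peaks per Mb. With protein-coding genes alone as starts and flanks, which leaves 474 peaks, tandem intervals had 57.8%, divergent 32.1% and convergent 9.92%. Densities were then 26.4 per Mb in tandem, 27.2 in divergent and 13.8 in convergent intervals. The order of tandem and divergent intervals thus rests on the non-coding genes of the annotation, while convergent intervals, which hold no start at either edge, were the sparsest both ways. These densities were not tested.

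The peaks fell in 266 intergenic intervals, and 225 of these held a single one. There were 29 intervals with 2 peaks, 9 with 3, 2 with 4 and 1 with 6. Some neighbours are not separate sites. Among the 324 peaks, 23 overlapped another, 11 neighbouring pairs of summits were within 250 bp of each other, and 4 peaks shared a replicate 1 peak with their neighbour.

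The interval with 6 peaks lies between F54F12.6 and Y39E4B.6 on chromosome III. Its strongest site (13061218 to 13061431) had signals of 276 and 292, and the next (13062458 to 13062887) had 92.8 and 172.6, with pooled signals of 586 and 256.6. The other 4 had pooled signals from 106.7 to 121.9, and 2 of them shared the same replicate 1 peak, of signal 57.4. The first 2 were thus above the members' median of 153.9 and the other 4 below it.

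There were 12 intervals with 3 or more peaks. Between F58H10.1 and nsf-1 (chromosome I), which encodes an ATPase of membrane fusion, the pooled signal was 528 at 1 site and 107.1, 111.7 and 136.4 at the others. Upstream of nhr-88 it was 1132 at the main site, 201.4 at a peak that overlaps it and 139.8 farther out. Between lpin-1, the gene of the lipid enzyme lipin, and H37A05.6 (chromosome V) it was 391, 293 and 114.2. Between Y37D8A.4 and Y37D8A.5 (chromosome III) it was 332, 314, 219 and 123.6.

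The remaining intervals had their strongest site between 179.4 and 495. That of nhr-20 and F43C1.7 (chromosome III) had 495, 191.9 and 105.5. That of rer-1 and F46C5.10 (chromosome II) had 472, 122.3 and 105.8. That of K07F5.15 and K07F5.20 (chromosome IV) had 378, 117.9 and 108.6, the last of them nearest to nhr-4 among protein-coding genes. That of T19H5.4 and gcy-3 (chromosome II) had 359, 124.2 and 108.9. That of W06H8.14 and K08B12.10 (chromosome V) had 302, 118.3 and 115.9. The last were those of ret-1 and ZC412.15 (chromosome V), with 236, 168.1 and 153.2, and of the axon regeneration kinase gene dlk-1 and F33E2.10 (chromosome I), with 179.4, 156.3 and 132.5.

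**Figure D4:**
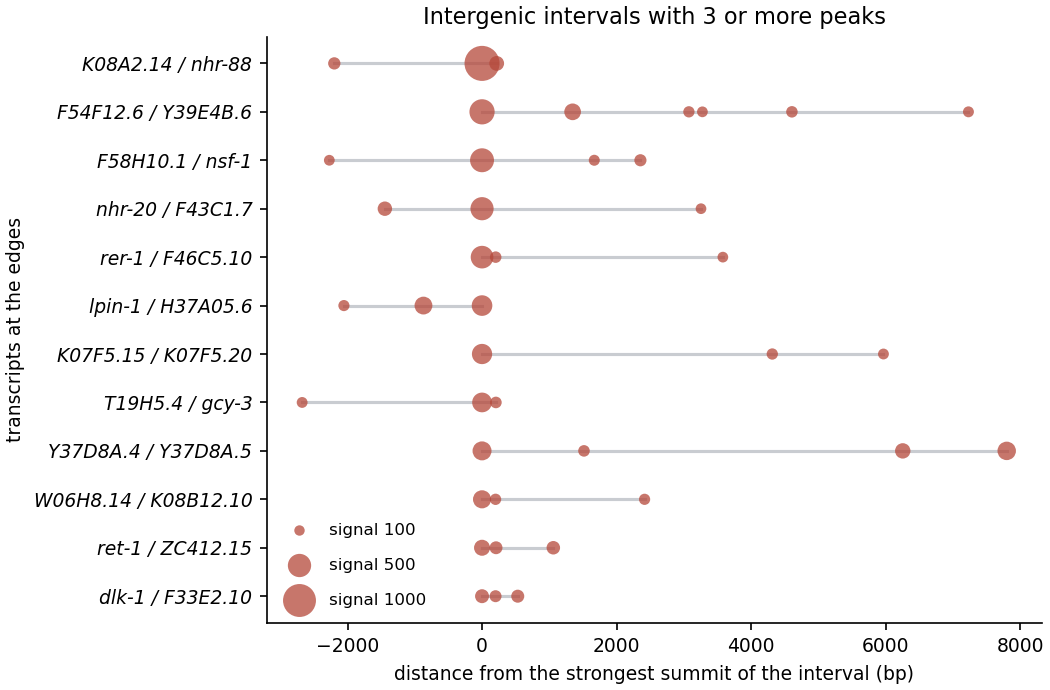
Summits of distal intergenic peaks in the 12 intergenic intervals that hold 3 or more, by distance in bp from the strongest summit of the interval (x axis), with point area in proportion to pooled signal and the transcripts at the edges named on the y axis. K08A2.14 / nhr-88 has the largest point (1132) beside smaller ones, and Y37D8A.4 / Y37D8A.5 has its 2 largest at the ends, with 332 and 314.

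Summits carried distinct sequence. GC content within 50 bp of the summit was 42.5% ± 7.34 (SD, n = 324 windows), against 33.0% ± 8.29 and 33.5% ± 7.95 in windows centred 500 bp to the left and right. At the other autosomal peaks it was 44.5% ± 7.94 at the summit and 36.4% and 36.5% in the flanks. Of 15 motifs searched on both strands, 3 were more frequent at the summit than in both flanks and 2 were less frequent (exact McNemar test, adjusted p under 0.05 over the 15). Over all autosomal peaks the same test called 5 of 15 (33.3%) more frequent and 3 of 15 (20%) less frequent.

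The GA repeat was the most common of them. GAGAGAG lay within 50 bp of 70 summits (21.6%, 17.5 to 26.4) and in 1.23% and 1.54% of the flanks (exact McNemar test, adjusted p = 3.66e-15), and over all autosomal peaks its share was 13.3%. CTGCGTC lay at 44 summits (13.6%, 10.3 to 17.7; all autosomal peaks 10.7%) and in 1.23% and 0.617% of the flanks (exact McNemar test, adjusted p = 1.47e-10). The E-box CACGTG lay at 33 (10.2%, 7.34 to 13.96; all autosomal peaks 8.11%) and in 2.16% and 1.23% of the flanks (exact McNemar test, adjusted p = 6.46e-05). With windows of 25 bp to each side the E-box call was lost (5.25% against 1.85% and 0.617%, exact McNemar test, adjusted p = 0.130). None of the 3 was past that test at the 104 summits with no lower-case base (exact McNemar test, adjusted p = 0.410 for GAGAGAG and 0.0781 for each of the other two), where the flanks were not chosen by case. At least 1 of the 3 was present at 121 summits (37.3%), against 399 of the 1562 other autosomal summits (25.5%), a difference that was not tested. GAGAGAG and CTGCGTC were together at 22 summits (6.79%), against 40 others (2.56%), and they can share a base, as in the window of T04C4.3.

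The homeodomain core TAATTA was at 0.926% of summits and in 6.17% and 4.94% of the flanks (exact McNemar test, adjusted p = 0.0166; all autosomal peaks 1.96%). The A tract AAAAAAAA was at 6.17% against 15.7% and 12.3% (exact McNemar test, adjusted p = 0.0272; all autosomal peaks 4.61%). Both calls were lost with the summits of replicate 1 alone (exact McNemar test, adjusted p = 0.120 and 0.0834) and with windows of 25 bp to each side (0.425 and 0.323). The A tract call was also lost with 1 peak per interval (0.104), with unique 31-mers (0.0723) and with flanks 1000 bp away (0.0530). Both words hold only A and T, and summits were richer in GC than the flanks. The remaining 10 motifs were not past the test. They included the half-site AGGTCA and the GATA sites TGATAA, at 40 summits (all autosomal peaks 8.7%), and AGATAA, at 35 (7.58%). The longer half-site TAGGTCA was at 8 (all autosomal peaks 1.38%), the forkhead site GTAAACA at 13 (2.07%) and the E2F-type site TTGGCGC at 3. The BLMP-1-type site TTTCACTTT was at 7 (all autosomal peaks 0.901%) and the piRNA upstream core CTGTTTCA at 2 (0.424%). The B box core GTTCGANNC was at 3 (all autosomal peaks 0.53%) and the heat shock core TTCNNGAA at 8 (3.08%).

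The half-site of Rev-Erb type receptors was present at 29 summits (8.95%, 6.30 to 12.6; all autosomal peaks 6.15%) and in 4.32% and 4.01% of the flanks. This was just short of the threshold (exact McNemar test, adjusted p = 0.0502). With flanks 300 bp away the adjusted p was 0.0175, and with flanks 1000 bp away 0.0191. It was 0.00325 with windows of 100 bp to each side and 0.130 with 25 bp, 0.0127 with the summits of replicate 2 and 0.101 with those of replicate 1. It was 0.0665 with 1 peak per interval, 0.0134 over all pooled peaks found in both replicates and 1 with no lower-case base. The same test called AGGTCA at the 1562 other autosomal peaks, with 5.57% against 2.11% and 3.27% (exact McNemar test, adjusted p = 0.00293). The summit exceeded the mean of its flanks by 2.88 percentage points there and by 4.78 at the 324 peaks here. The excess of 4.78 points includes 5 windows in repeated sequence, and the reason for the missed call was not tested. The 29 distal intergenic windows were of 2 kinds. There were 24 with a single half-site, all with unique 31-mers around the summit (as 91.1% of all autosomal peaks had), and 5 with 5 to 8 half-sites each, all in repeated sequence.

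The 5 windows with many half-sites were near let-767 (8), F40F8.4 (8), T06G6.6 (6), F22G12.3 (5) and inx-17 (5), an innexin gene. They hold TAGGTCA as well, and from 79.2% to 100% of their bases are lower-case in the RefSeq sequence, which marks repeats. The share of 31-mers that occur once in the genome was 0.365 at let-767, 0.166 at F40F8.4, 0.288 at T06G6.6, 0.638 at F22G12.3 and 0.0959 at inx-17, so the placement of reads there is uncertain. Signals in replicates 1 and 2 were 56.0 and 70.2 at let-767, 77.4 and 46.6 at F40F8.4, and 331 and 266 at F22G12.3. At inx-17 they were 84.4 and 35.9, one of the widest gaps between replicates. Among the 305 peaks with unique 31-mers, 24 (7.87%) held the half-site, against 3.61% and 3.28% of the flanks (exact McNemar test, adjusted p = 0.0877).

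The strongest of the 24 single half-sites lay near the synaptotagmin gene snt-1 (pooled signal 365), the kinase gene wnk-1 (336), the protease gene bli-4 (309), mnk-1 (268) and nhr-286 (267). Peaks with a half-site, the 5 in repeated sequence included, had a median pooled signal of 129.6, against 156.3 for those without. The replicates differed in direction. The medians were 80.1 with and 78.7 without it in replicate 1, and 70.2 and 82.5 in replicate 2. This was not tested. Among the 81 strongest members 6 had a half-site, and among the 81 weakest 8.

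**Figure D5:**
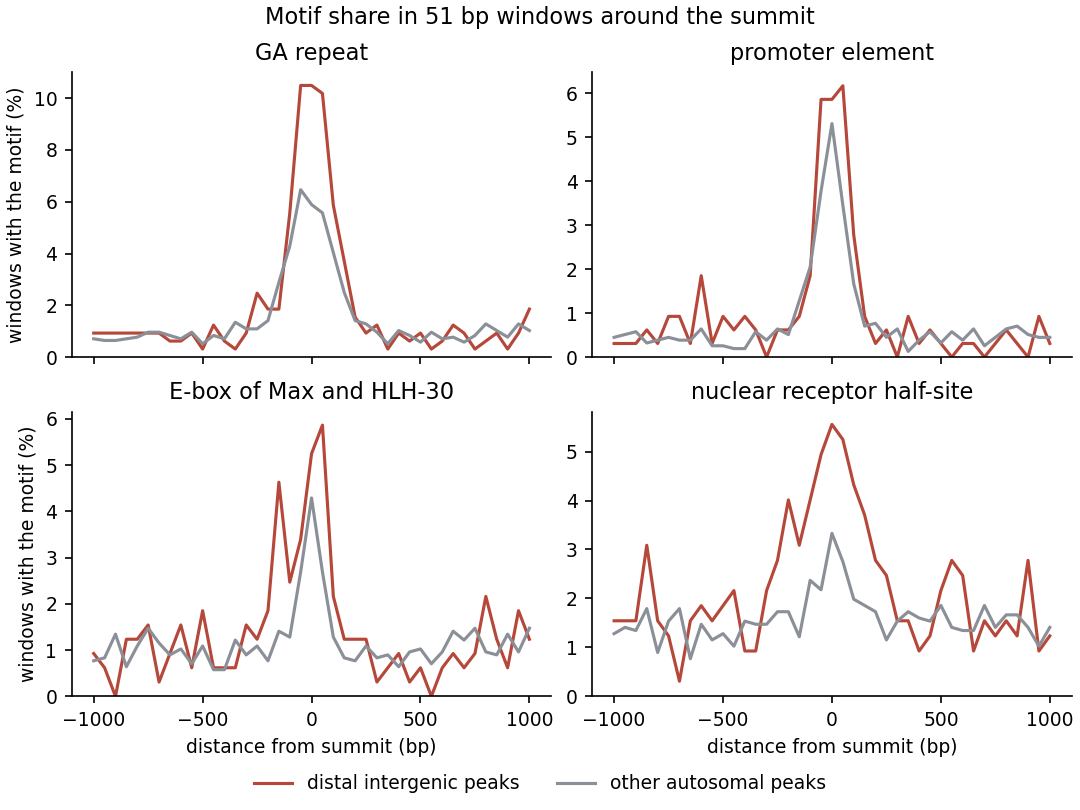
Share of 51 bp windows (y axis, %) that hold each of 4 motifs, by distance in bp of the window's centre from the summit (x axis), for 324 distal intergenic peaks (red) and 1562 other autosomal peaks (grey). All 4 curves for distal intergenic peaks are highest within 100 bp of the summit, and the GA repeat differs most between the groups.

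Set against the other autosomal peaks, 2 of 23 measures differed. The GA repeat was more frequent at distal intergenic summits, 21.6% against 11.5% (10.03 to 13.2), a difference of 10.1 percentage points (Fisher's exact test, odds ratio 2.12, adjusted p = 8.59e-05). It was at 10.9% of promoter and 14.2% of intronic summits, and at 8 of 118 distal intergenic summits of the X chromosome (6.78%). The difference from introns was not past the test (Fisher's exact test, 7.38 points, adjusted p = 0.261). Nor was the difference from all other peaks in the stronger part of the list (8.47 points, Fisher's exact test, adjusted p = 0.0613).

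The excess of GA repeats lay in windows with lower-case sequence. Where the window held lower-case bases, GAGAGAG was at 62 of 220 distal intergenic summits (28.2%, 22.6 to 34.5) and at 122 of 1043 others (11.7%, 9.89 to 13.8). Where it held none, the shares were 8 of 104 (7.69%, 3.95 to 14.4) and 58 of 519 (11.2%, 8.74 to 14.2), a difference of -3.48 points (Fisher's exact test, adjusted p = 0.7997). Over the autosomes 57.7% of GAGAGAG matches hold lower-case bases, so the split by case removes many matches by itself. In the summit windows 117 of 180 matches held lower-case bases at distal intergenic peaks and 361 of 513 at the others. A long repeat gives many matches, with 12 in the din-1 window, so these counts do not stand for windows. By window, 62 of the 70 distal intergenic summits with the repeat had lower-case bases around them, and 122 of the 180 others with it. Of the peaks with the repeat, 65 of 70 had unique 31-mers. The part of repeat masking in the difference was not tested beyond these values.

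The E2F-type site TTGGCGC was the other measure. It was at 3 distal intergenic summits (0.926%, 0.315 to 2.69) and at 63 others (4.03%, 3.17 to 5.13), against 3.50% of all autosomal peaks (Fisher's exact test, odds ratio 0.222, adjusted p = 0.0463). This rests on 3 peaks, and with the summits of replicate 2 alone the difference was -2.61 points (Fisher's exact test, adjusted p = 0.0889). Against intronic peaks alone it was 0.467 points (Fisher's exact test, adjusted p = 0.880).

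Other measures fell short of the threshold in this comparison. GC content was above the autosomal median at 39.8% of distal intergenic summits and 47.95% of others (all autosomal peaks 46.6%), TGATAA was at 12.3% against 7.94%, and GTAAACA at 4.01% against 1.66% (Fisher's exact test, adjusted p = 0.0644 for each). By Fisher's exact test the adjusted p was 0.0857 for AGGTCA, at 8.95% against 5.57%. The next summit lay farther than the autosomal median at 45.99% against 50.8% (all autosomal peaks 49.9%; Fisher's exact test, adjusted p = 0.240). Against promoter peaks alone, 9 of 23 measures were past Fisher's exact test. The added ones were lower GC, a shorter distance to the next summit (median 4770 bp against 8733 bp), more half-sites in both forms, more GATA sites of both kinds and more forkhead sites. Intronic summits had AGGTCA at 8.72%, TGATAA at 11.5% and TAGGTCA at 4.13%, the last above the 2.47% of distal intergenic summits. AGATAA (7.34%) and GTAAACA (2.75%) were lower at intronic than at distal intergenic summits. Of the 305 distal intergenic peaks with unique 31-mers, 3 (0.984%) held TAGGTCA, against 0.681% of all promoter peaks.

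A count of every 6-letter word gave the same outline. Of 2080 words, each taken with its reverse complement, 139 differed between summit and both flanks (exact McNemar test, adjusted p under 0.05), 68 of them more and 71 less frequent at the summit. Over all autosomal peaks 21.5% of the words were more and 15.8% less frequent. In the other autosomal peaks alone 668 words were called, and 126 were called in both groups with the same direction. The first was GAGAGA, at 36.7% of distal intergenic summits against 4.94% and 5.25% of the flanks (exact McNemar test, adjusted p = 9.86e-21). The first among the rarer words was AAAATT, at 15.1% against 49.7% and 49.1% (exact McNemar test, adjusted p = 1.19e-15). This word holds only A and T, and summits were richer in GC than the flanks. The part of GC content in these calls was not tested.

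The genes beside the sites were described by family, each peak counted for its nearest protein-coding start. Nuclear hormone receptor genes, a family much expanded in nematodes, were nearest at 19 peaks (5.86%, 3.79 to 8.98) and made up 16 different genes. They were nearest at 2.75% (2.05 to 3.69) of the other autosomal peaks and are 1.43% of autosomal protein-coding genes. At 8 of the 19 a start of another type, such as a piRNA or non-coding RNA gene, was closer to the summit than the receptor gene. With the protein-coding genes on both sides of each peak counted, 23 peaks (7.10%) had a receptor gene. The receptor list was chosen with earlier results of these data known, and these shares were not tested.

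Besides nhr-88, the strongest receptor sites were as follows. The peak 7158 bp upstream of nhr-31 (IV, 8036534 to 8036765) had signals of 259 and 234, but a non-coding RNA gene, C26B2.15, starts 2383 bp away. The peak 4676 bp upstream of nhr-20 (III, 4237784 to 4238000) had 231 and 265. The peak 1554 bp upstream of nhr-21 (II, 7337460 to 7337889) had 91.9 and 244.2, the widest gap between replicates of all members. The peaks near nhr-162 (V, 6994118 to 6994242), nhr-105 (IV, 7047963 to 7048073) and nhr-61 (II, 14822373 to 14822802) had pooled signals of 417, 323 and 285. Those near nhr-286, nhr-46, nhr-10, nhr-258, nhr-70, nhr-270, nhr-4, nhr-84 and nhr-204 ran from 106.0 to 267. The replicates were close at all but nhr-21 among those with values above.

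Of the heterochronic genes, which time larval cell fates, 1 was nearest to a distal intergenic peak. The peak lay 1515 bp upstream of lin-41 (I, 9343796 to 9344225), the gene of an RNA-binding protein that the microRNA let-7 represses, and had signals of 141.4 and 146.3. Molting and clock genes were nearest at 2 peaks, both weak. These lay 2053 bp upstream of pan-1 (III, 4560470 to 4560899), with 76.9 and 55.2, and 1698 bp upstream of the peroxidase gene mlt-7 (II, 4391094 to 4391523), with 60.0 and 61.1. No peak was nearest to a GATA factor gene or to a T-box or Sox gene (0 of 324, for which the Wilson interval reaches 1.17%). Of the other autosomal peaks, 0.384% were nearest to a heterochronic gene, 0.512% to a molting or clock gene and 0.192% to a GATA factor gene, and 0 of 1562 to a T-box or Sox gene. These shares are close to those of the distal intergenic peaks, which were 0.309% for heterochronic and 0.617% for molting and clock genes.

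Other regulators were present in small numbers. Forkhead genes were nearest at 2 peaks, both upstream of the FOXO gene daf-16 (I, 10748231 to 10748660 and 10748432 to 10748861). They overlap, with pooled signals of 256.4 and 118.4, and the non-coding gene H36N01.4 starts closer to both summits, at 1584 bp and 1383 bp. Basic helix-loop-helix genes were nearest at 2, hif-1 and mml-1, the gene of a Mondo-type factor (III, 7376555 to 7376707, with signals of 135.0 and 199.0). Homeobox genes were nearest at 2, the Distal-less gene ceh-43 (279; F56F3.7 starts closer, at 1320 bp) and the engrailed gene ceh-16 (117.8). Each of these 3 families was thus nearest at 0.617% of the peaks, against 0.640% of other autosomal peaks for forkhead genes and 0.512% each for the other two. The body size gene lon-1 (III, 5472660 to 5473089) had a peak 1601 bp upstream, with signals of 111.4 and 74.5.

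Among effector families, neuropeptide and insulin-like genes were nearest at 4 peaks (1.23%, 0.481 to 3.13; 0.384% of other peaks). These were nlp-40 and the antimicrobial peptide genes nlp-24, nlp-29 and nlp-33, with pooled signals of 555, 238, 169.8 and 129.6. Chemoreceptor genes were nearest at 7 (2.16%, 1.05 to 4.39), against 0.768% of other peaks and 7.39% of autosomal genes. Their pooled signals ran from 101.8 to 182.7, near srd-7, str-131, srw-85, sre-2, str-144 and sra-13. With the protein-coding genes on both sides of each peak counted, 19 peaks (5.86%) had a chemoreceptor gene. Cytosolic ribosomal protein genes were nearest at 1 peak, 2277 bp downstream of the rpl-31 start (0.309%, 0.0545 to 1.73; signal 176.1), against 1.98% (1.40 to 2.80) of other peaks.

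Cuticle collagen genes were nearest at 2 peaks, col-3 (104.2) and col-98 (98.1). Hedgehog-related genes were nearest at 3, the patched gene ptc-3 (136.0), ptr-14 (117.5) and ptr-23 (110.8). F-box and MATH-BATH genes were nearest at 1, bath-44 (105.8), and C-type lectin genes at 1, clec-91 (115.6). The share of peaks was 0.617% for collagens (1.02% of other autosomal peaks), 0.926% for hedgehog-related genes (0.704%), 0.309% for F-box and MATH-BATH genes (0.384%) and 0.309% for C-type lectins (0.0640%). At the 3 hedgehog-related peaks, the col-98 peak and the rpl-31 peak a start of another type was closer. The 7 peaks of these 4 families were all below the members' median of 153.9. One peak, 4129 bp upstream of W05B5.1 (I, 13029139 to 13029568; signals 61.3 and 39.1), lay within 40 kb of nhr-85, whose DNA is also in the transgene, and none lay so near to unc-119.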

How the data were processed

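NHR-85-GFP ChIP-seq peak lists of 2 biological replicates and of their pooled reads were used on ce11, which is WBcel235. Per the file descriptions, peaks were called against a control alignment for each replicate and on the pool, and the IDR-thresholded list was made from these lists. Peak caller, aligner, thresholds and read length: not given in the sources used here. Signal values are the authors' own deposited numbers, in the caller's units, and served only to describe, rank or split peaks. The deposited −log10 q-value was at its ceiling at 205 of the 324 members (63.3%) and was not used. No list gives read counts, so precision set by depth is unknown. The ce10 lists were not used here.

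Of 2410 lines, those with equal intervals were reduced to the stronger, which left 2404, and 1 summit past its peak's end was set to the end. Annotation was Ensembl release 115 and sequence the RefSeq WBcel235 assembly. A replicate peak was matched by an overlap of at least 1 bp. Of the members, 274 were 430 bp wide, 47 narrower and 3 wider, so the split by width says little. Uniqueness was the share of 31-mers within 150 bp of the summit that occur once in the assembly.

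Motif windows reached 50 bp to each side of the summit. They were compared with windows centred 500 bp away by the two-sided exact McNemar test (larger p of both sides), and between peak classes by two-sided Fisher's exact test, with Benjamini-Hochberg adjustment over 15 motifs, 2080 words or 23 measures. Numeric measures were compared as shares above the autosomal median. Neighbouring peaks are not independent, so p-values may be too small. Intervals on shares are 95% Wilson intervals and express counting error alone. Gene lists and arrangement were not tested. Only the McNemar steps for motifs and words were tested on simulated data, a shuffled genome with a motif planted near known summits. Shuffling takes away repeats and the GC rise at summits, so that test does not cover their effects. Python 3.11.15, numpy 2.4.6, pandas 2.3.3, scipy 1.17.1 and matplotlib 3.10.9 were used.

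The members, gene lists and motifs were chosen with earlier results of these data known. Named were the 25 strongest peaks, the 5 farthest from a start, intervals with at least 3 peaks, and members near heterochronic, molting or GATA genes. Up to 6 of each other list, peaks at the limits of the rule and peaks within 40 kb of the genes nhr-85 or unc-119 were also named. Chosen after their values were seen were the peaks named for half-sites, for receptor genes beyond 6, for the last chemoreceptor and for gaps between replicates. Alternatives changed the promoter window, gene types, peak set, summit, comparison group, windows and flanks. Those with no lower-case base, with intronic peaks, with shared pooled peaks, with unique 31-mers in the class comparison, with other windows there and with 1 peak per interval for nearest genes were chosen after seeing the data.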

Additional observations from a re-analysis of the deposited data

How the results depend on the processing

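No paired analysis was possible because there was 1 group and no second condition. The number of distal intergenic peaks was 324 to 325 with the summits of 1 replicate, 164 with a promoter of 2000 bp, 155 in the stronger part of the list and 813 over all pooled peaks found in both replicates. Their share of autosomal peaks was 23.7% with a promoter of 500 bp, 8.70% with 2000 bp and 25.1% with protein-coding genes only. The tandem share was 57.8% with flanking protein-coding genes only. The count of differing measures, 2 of 23, was 1 to 3 with the summits of 1 replicate, 5 with 1 peak per interval, 4 with protein-coding genes only, 9 against promoter peaks, 5 over shared pooled peaks, and 1 each against intronic peaks, with windows of 25 bp to each side and with no lower-case base. It was 0 in the stronger part of the list, where 7 had an unadjusted Fisher's exact p under 0.05. With the summits of 1 replicate, the distance to the next summit was taken to pooled summits, the peak's own included. Its autosomal median was 13 to 18 bp there, so it does not measure spacing in those settings. The GA repeat difference, in percentage points, was 7.25 to 8.33 with the summits of 1 replicate. It was no longer past the test in the stronger part (8.47), against introns (7.38) and with 25 bp (4.604), and it reversed without lower-case bases (-3.48). The TTGGCGC difference was -2.79 to -2.61 with the summits of 1 replicate. It was no longer past the test in the stronger part (-3.89), with protein-coding genes only (-2.42), with no lower-case base (-2.12), with 25 bp (-2.12) and with 100 bp (-2.49), and it reversed against introns (0.467). The share of peaks with a distant next summit reversed against introns (14.6). Motifs called at the summit, 5 of 15, were 3 to 7 with the summits of 1 replicate, 2 with 25 bp and 8 over shared pooled peaks. The count was 1 with no lower-case base, but there only summit windows were chosen by case and not the flanks. The 1 call, the A tract, says nothing, since 99.8% of A tracts in the autosomes hold lower-case bases. Called words, 139, were 50 with 25 bp and 242 with 100 bp. The windows without lower-case bases were 104, so fewer peaks were tested there. For the other changes the cause was not tested. Depth is unknown, so what it limits could not be assessed.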

Other observations

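At 10 of the 324 distal intergenic peaks the replicate signals differed by more than 2-fold, named here after their values were seen, as they did at 57 of all 1885 autosomal peaks found in both replicates. Replicate 1 was the higher near wnk-1 (79.3 and 33.6), inx-17 (84.4 and 35.9), dbn-1 (60.8 and 26.9) and W02D9.9 (87.1 and 41.2). Replicate 2 was the higher near F52E1.2 (46.1 and 93.6), arrd-1 (35.5 and 74.2), vhp-1 (38.7 and 82.5), snf-3 (31.2 and 68.2), ptr-23 (30.9 and 79.3) and nhr-21 (91.9 and 244.2). The wnk-1 and vhp-1 peaks are the weaker of 2 peaks nearest to each gene. All but nhr-21 had pooled signals below the median of 153.9, and all but inx-17 had unique 31-mers.

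Width followed signal in these lists. The 47 distal intergenic peaks narrower than 430 bp had a median pooled signal of 416, and the 274 of that width one of 137.2. Windows with 5 or more half-sites were also found at 4 other autosomal peaks.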
